A study of Mus musculus with 7 samples.

Results

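The genes examined here carry growth signals between the stroma and the epithelium of skin papillomas. They are the PDGF ligands *Pdgfa*, *Pdgfb* and *Pdgfc* with the receptors *Pdgfra* and *Pdgfrb*, *Fgf7* with its receptor *Fgfr2*, *Hgf* with its receptor *Met*, and *Igf1*. These 10 genes were chosen by symbol from the 23284 symbols of the deposited tables, each of them is listed at a single locus in all 7 papillomas, and 8 had enough expression for the test across genes. RNA was sequenced from 1 papilloma of each of 4 control mice (CTR) and 3 Nanog-overexpressing mice (TG). All 7 mice were of C57Bl/6 background, carried the *tetO-Nanog* allele, in which a *Nanog* cDNA placed downstream of *Col1a1* answers to doxycycline, and drank doxycycline at 2 mg/ml throughout chemical carcinogenesis with DMBA, a mutagen, and TPA, a tumor promoter. TG mice also carried *K5-rtTA*, a transactivator under the bovine keratin 5 promoter, while the CTR littermates lacked it. That promoter directs expression to basal keratinocytes, and the libraries are of whole papillomas, in which epithelium and stroma are mixed.

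As background, PDGF-A and PDGF-C signal mainly through PDGFRα on fibroblasts, and PDGF-B draws pericytes, which bear PDGFRβ, to blood vessels. FGF7, or keratinocyte growth factor, is made by dermal fibroblasts and acts on the epithelial form of FGFR2, and HGF from mesenchymal cells acts on MET in the epithelium. IGF1 is made by fibroblasts, macrophages and muscle and acts through a receptor found on keratinocytes and stromal cells alike.

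In the files the FGF7 and HGF pathways had abundant receptor and scarce ligand transcripts. The epithelial receptors *Fgfr2* and *Met* had a mean of 8.91 and 5.19 FPKM over the 7 papillomas, while their ligands *Fgf7* and *Hgf* had 0.130 and 0.0411 FPKM. FPKM, the unit of the files, is the number of fragments scaled to the length of the transcript and to the mapped fragments of the library, so levels of different genes can be set beside each other. In whole papillomas such levels do not tell fewer cells of a type from less RNA per cell. No member passed the adjusted test between TG and CTR papillomas. The *Nanog* transcript, raised by the transgene, did not pass it either, so failing this test does not show that a gene was unchanged. The papilloma TG 3 was the highest of the 7 for 7 of the 10 genes and for 5 of the 8 tested ones, where it was so for 41.1% of all tested genes. *Pdgfra* was the only tested member for which every TG papilloma lay above every CTR papilloma, as was so for 4.93% of all tested genes. It reached the test only through its TG values.

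The windows directly upstream of 3 of the genes are shown, *Pdgfra* because its groups did not overlap, and *Fgf7* and *Fgfr2* as a scarce stromal ligand and its abundant epithelial receptor. They are from the RefSeq promoter table for GRCm38.p6, which matched 8 of the 10 genes and did not match *Pdgfb* or *Pdgfrb*. Each is the 250 bases before the start site, 5′ to 3′ on the strand of the gene, at chr5:75152001-75152250 (plus strand), chr2:126034408-126034657 (plus strand) and chr7:130266809-130267058 (minus strand). None of the 3 windows overlaps an annotated exon of these genes. Capitals mark matches to 5 motifs searched on both strands.
Pdgfra: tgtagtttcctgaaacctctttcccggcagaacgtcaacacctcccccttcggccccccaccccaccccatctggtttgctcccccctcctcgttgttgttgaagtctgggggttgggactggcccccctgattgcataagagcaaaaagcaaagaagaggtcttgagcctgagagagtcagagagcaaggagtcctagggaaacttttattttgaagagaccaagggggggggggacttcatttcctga
Fgf7: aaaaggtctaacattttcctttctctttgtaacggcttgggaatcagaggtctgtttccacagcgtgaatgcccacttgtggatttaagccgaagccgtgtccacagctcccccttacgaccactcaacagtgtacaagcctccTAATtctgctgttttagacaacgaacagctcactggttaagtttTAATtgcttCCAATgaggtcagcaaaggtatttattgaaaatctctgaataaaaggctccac
Fgfr2: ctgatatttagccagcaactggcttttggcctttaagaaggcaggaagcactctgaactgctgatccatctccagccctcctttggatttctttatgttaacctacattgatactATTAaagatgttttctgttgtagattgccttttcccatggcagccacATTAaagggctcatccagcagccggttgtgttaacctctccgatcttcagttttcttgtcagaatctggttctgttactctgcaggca
The motifs were TATAAA (the TATA box), CCAAT (the CCAAT box), GGGCGG (the GC box), TGACTCA (the AP-1 site) and TAAT (the core letters of many homeodomain sites). Among 32851 upstream windows of the same length, 12.4%, 33.8%, 32.7%, 4.5% and 54.9% held them, in that order. The *Fgf7* window holds CCAAT once and TAAT at 2 places, the *Fgfr2* window holds TAAT at 2 places, and the *Pdgfra* window holds none of the 5. A match is only a match of letters, and the data hold no measure of binding.

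The labels and the quality of the libraries bear on all comparisons. *Nanog* lay between 36.9 and 66.9 FPKM in TG and between 2.70 and 12.7 FPKM in CTR papillomas. Its TG mean was 9.94 times its CTR mean, and yet its limma adjusted p was 0.400. With these papillomas the adjusted test thus missed even the induced gene. The files hold no read numbers, and the width of the intervals that Cufflinks gives for each value implied between 10074859 and 15710562 reads on genes per library. The papilloma TG 3 stood apart from the rest. Its correlation with the other papillomas across genes was between 0.903 and 0.937, against 0.945 to 0.977 for the other pairs, and over the 12299 tested genes it deviated from the CTR mean by a median of 0.24 on the log2 scale, where TG 1 deviated by -0.03 and TG 2 by -0.02. The 6 skeletal muscle markers summed to 614 FPKM in TG 3 and to at most 4.84 FPKM elsewhere. Keratinocyte markers, which a skin papilloma should express, were abundant in all 7, with *Krt14* between 4717 and 10940 FPKM.

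Among the PDGF ligands, *Pdgfa* was the most abundant. The gene lies on chromosome 5 from 138976972 to 138994953 (GRCm38, as all positions here). It had 3.26, 5.87, 5.51 and 5.50 FPKM in CTR 1 to CTR 4 and 8.77, 5.23 and 7.79 FPKM in TG 1 to TG 3, from between 59 and 204 implied reads. TG 2 lay inside the CTR range and the other TG papillomas above it. The TG mean was 7.26 ± 1.83 FPKM (SD, n = 3) and the CTR mean 5.03 ± 1.20 FPKM (SD, n = 4). On the log2(FPKM + 0.5) scale, used for all differences, TG minus CTR was 0.49 with a standard error (SE) of 0.25, and limma gave a Benjamini-Hochberg adjusted p = 0.801. Changes of genes at low FPKM come out too small on this scale.

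*Pdgfb*, which in skin comes largely from endothelium and platelets, lies on chromosome 15 from 79995876 to 80014808 and was near 1 FPKM in most CTR papillomas. CTR 1 had 1.01, CTR 2 had 1.55, CTR 3 had 1.12 and CTR 4 had 3.63 FPKM. TG 1, TG 2 and TG 3 had 4.09, 2.80 and 3.67 FPKM, so that CTR 4 alone reached the TG values. The TG mean was 3.52 ± 0.658 FPKM (SD, n = 3) and the CTR mean 1.83 ± 1.22 FPKM (SD, n = 4). When each TG papilloma was set against each CTR papilloma, TG was the higher in 11 of 12 pairs. Its log2 difference was 0.90 (SE 0.35, limma adjusted p = 0.702) and it did not pass a 2-sided exact permutation of the group labels (p = 0.0857). It was 0.87 without TG 3, 1.22 without CTR 4, 0.73 without CTR 1 and 0.53 when limma gave each papilloma a quality weight. Endothelial markers varied beside it, with 5 markers summing to between 6.70 and 12.4 FPKM in CTR papillomas, highest in CTR 4, and to 17.4, 9.82 and 25.8 FPKM in TG 1 to TG 3, and their part in the difference was not tested.

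*Pdgfc*, the third ligand, which is activated by proteolysis, was the only PDGF gene with a lower mean in TG papillomas. It lies on chromosome 3 from 81036416 to 81214031. Its values were 1.29, 0.504, 0.513 and 1.55 FPKM in CTR 1 to CTR 4, and 0.423, 0.291 and 1.56 FPKM in TG 1 to TG 3. TG 1 and TG 2 lay below every CTR papilloma and TG 3 just above CTR 4. The log2 difference was -0.28 (SE 0.41, limma adjusted p = 0.948), and without TG 3 it was -0.70. The balance of the ligands varied between papillomas, and the *Pdgfa* level was between 3.23 and 4.92 times that of *Pdgfb* in CTR 1 to CTR 3, 1.51 times in CTR 4 and between 1.87 and 2.14 times in the TG papillomas.

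The PDGF receptors were most abundant in TG 3. *Pdgfra*, the receptor that marks dermal fibroblasts, is on chromosome 5 from 75152291 to 75198204. It lay in a narrow range of CTR values, from 0.280 to 0.369 FPKM with an SD of 0.0409, at between 29.5 and 40.6 implied reads. The TG papillomas had 82.3, 62.4 and 347.5 implied reads, which correspond to 0.563, 0.613 and 3.52 FPKM, so that TG 1 and TG 2 were close together just above the CTR range and TG 3 was 5.74 times the next highest papilloma. The groups did not overlap, which held for 1 of the 8 tested members, and over all tested genes every TG papilloma lay above every CTR papilloma in 4.93%. The log2 difference was 1.03 (SE 0.45, limma adjusted p = 0.729) with TG 3 and 0.40 without it. The exact permutation p was 0.0286, the smallest that 35 splits allow, and 0.0667 without TG 3, the smallest that 4 against 2 papillomas allow. The paper also measured *Pdgfra* by quantitative PCR and reported a significantly higher level in TG than in CTR papillomas.

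*Pdgfrb*, the receptor of pericytes and many fibroblasts, is on chromosome 18 from 61045150 to 61085067. It had 1.40, 1.09, 1.11 and 1.72 FPKM in CTR 1 to CTR 4. In TG 1, TG 2 and TG 3 it had 1.76, 1.67 and 6.34 FPKM, with TG 2 below CTR 4. The log2 difference was 0.83 (SE 0.39, limma adjusted p = 0.772), and it was 0.29 without TG 3. Permuting the group labels exactly gave p = 0.0571. Both receptors had their highest value in TG 3, but not in equal measure. *Pdgfrb* was between 3.15 and 4.65 times the level of *Pdgfra* in CTR papillomas, and 3.13, 2.72 and 1.80 times in TG 1 to TG 3.

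**Figure D1:**
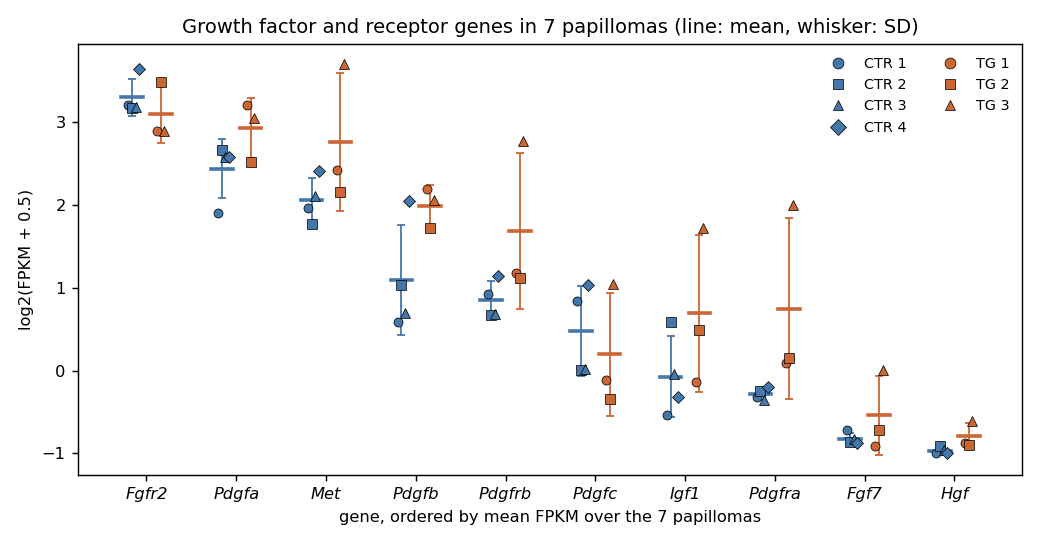
Levels of the 10 genes as log2(FPKM + 0.5) in the 4 CTR (blue) and 3 TG (orange) papillomas, ordered by mean FPKM, with a marker shape for each replicate number, a line at the mean and a whisker of 1 SD. *Fgfr2*, *Pdgfa* and *Met* lie at the top and *Fgf7* and *Hgf* at the bottom, and the TG triangle (TG 3) is the highest point for 7 genes.

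In the FGF7 axis the receptor was abundant and the ligand near the limit of detection. *Fgfr2*, on chromosome 7 from 130162451 to 130266808, had 8.73, 8.51, 8.57 and 11.96 FPKM in CTR 1 to CTR 4, and 6.95, 10.7 and 6.96 FPKM in TG 1 to TG 3, at 514 or more implied reads in each. CTR 4 stood above the other CTR papillomas, and TG 1 and TG 3 lay below all 4. The log2 difference was -0.21 (SE 0.21, limma adjusted p = 0.909), smaller than the spread of the papillomas. The gene-level values do not separate the epithelial form of the receptor from the mesenchymal one.

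*Fgf7*, on chromosome 2 from 126034658 to 126091185, was measured from 5, 3, 4 and 2 implied reads in CTR 1 to CTR 4. TG 1 and TG 2, with 2 and 5 reads, were alike, and TG 3 had 22. In FPKM this is between 0.0437 and 0.107 in CTR papillomas, and 0.0326, 0.108 and 0.501 in TG 1 to TG 3. The Cufflinks interval of TG 3, from 0.288 to 0.715 FPKM, lay above that of every other papilloma, the highest of which ended at 0.205. These intervals do not cover the spread between mice. The groups did not differ in the exact permutation test (p = 0.314), and without TG 3 the log2 difference was 0.01. *Fgf7* was below the minimum of 0.5 FPKM for the test across genes. *Fgfr2* exceeded *Fgf7* by between 81.4 and 273.5 times in 6 papillomas and by 13.9 times in TG 3.

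In the HGF axis the ligand was scarcer still. *Hgf*, on chromosome 5 from 16553550 to 16619439, was listed at 0 in CTR 1 and CTR 4, which allows up to 3 reads, and at 0.0326 FPKM in CTR 2 and 0.0154 FPKM in CTR 3, from 2 reads and 1 read. TG 1, TG 2 and TG 3 had 0.0463, 0.0387 and 0.154 FPKM, from 3, 2 and 7 reads. The FPKM values did not overlap between groups (2-sided exact permutation test, p = 0.0286), but a difference was not detectable at this depth. Expressed as depth-scaled reads, the implied reads per 1000000 implied reads of the library, CTR 2 with 0.199 exceeded TG 2 with 0.188, and the same exact permutation test gave p = 0.114. Both values rest on 2 reads, and their order depends on the scaling. The implied length that links reads to FPKM was 6.09 kb in CTR 2 and 4.87 kb in TG 2.

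*Met*, the receptor, on chromosome 6 from 17463957 to 17573980, was measured at between 369 and 1260 implied reads. CTR 1 to CTR 4 had 3.40, 2.91, 3.82 and 4.81 FPKM, and TG 1 to TG 3 had 4.86, 3.96 and 12.6 FPKM. TG 1 lay just above CTR 4, TG 2 inside the CTR range, and TG 3 at 2.59 times the next highest papilloma. The TG mean was 7.13 ± 4.74 FPKM (SD, n = 3) and the CTR mean 3.73 ± 0.807 FPKM (SD, n = 4). TG exceeded CTR by 0.70 on the log2 scale (SE 0.35, limma adjusted p = 0.801), and without TG 3 it was 0.23. As MET is a receptor of epithelial cells, keratinocyte markers were read beside it. They summed to 6978 FPKM in TG 3, to between 8230 and 11480 FPKM in CTR papillomas, and to 17490 and 15290 FPKM in TG 1 and TG 2. The members of that list differed in TG 3. *Krt14*, the largest part of the sum in every papilloma, was lowest in TG 3, at 4717 FPKM. *Krt1* was also lowest there, with 133 FPKM against at least 187 FPKM elsewhere. *Krt5* was highest in TG 3, at 1783 FPKM, just above the 1777 FPKM of TG 1. *Trp63*, with 42.1 FPKM in TG 3, lay inside the CTR range. *Krt10*, a keratin of differentiating layers, had 181 FPKM in TG 3 and at least 917 FPKM elsewhere, while *Cdh1*, which encodes E-cadherin, had 122 FPKM in TG 3 and between 67.2 and 109 FPKM elsewhere. The part of these cells in the *Met* values was not tested.

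*Igf1*, on chromosome 10 from 87859056 to 87937047, varied widely among the CTR papillomas. It had 0.192, 1.00, 0.476 and 0.305 FPKM in CTR 1 to CTR 4, and 0.406, 0.909 and 2.81 FPKM in TG 1 to TG 3. TG 1 and TG 2 lay inside the CTR range and TG 3 was 2.80 times its top. The TG mean was 1.37 ± 1.27 FPKM (SD, n = 3) and the CTR mean 0.495 ± 0.359 FPKM (SD, n = 4). TG exceeded CTR by 0.77 on the log2 scale (SE 0.46, limma adjusted p = 0.826), and it was 0.25 without TG 3.

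For *Igf1* the reads and the FPKM ranked the papillomas differently. TG 2 had 99.3 implied reads for 0.909 FPKM, whereas CTR 2 had 45.4 implied reads for 1.00 FPKM, in libraries of similar depth. In depth-scaled reads the CTR papillomas had 0.747, 4.51, 2.19 and 1.51, and the TG papillomas 3.78, 9.35 and 20.5, so that 11 of 12 pairs were higher in TG against 9 of 12 in FPKM. On this measure the log2 difference was 1.99 in place of 0.77, and it did not pass the exact permutation test either (p = 0.0857). The length that links reads to FPKM, which depends on how Cufflinks shared reads among the transcripts of the gene, was between 3.88 and 4.95 kb in CTR and between 7.29 and 10.3 kb in TG papillomas. Its highest value was 2.65 times its lowest for *Igf1*, and between 1.18 and 1.63 times for the other 9 genes. These lengths are on a relative scale, since both the reads and the depth were implied from intervals, and for a gene with several transcripts an interval may hold more than counting error.

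**Figure D2:**
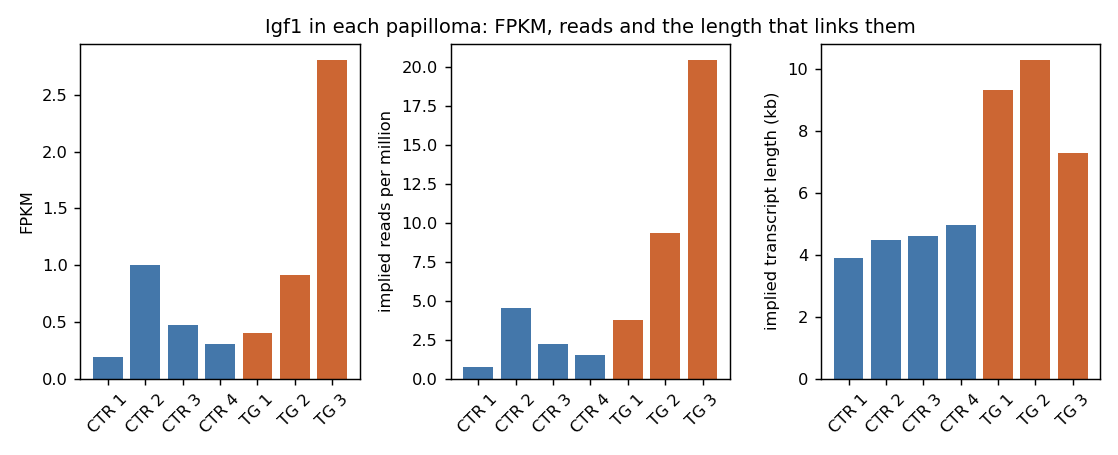
*Igf1* in each CTR (blue) and TG (orange) papilloma as FPKM (left), as implied reads per 1000000 reads of the library (middle) and as the implied transcript length in kb that links them (right), with a bar for each papilloma. TG 2 is below CTR 2 in FPKM and above it in depth-scaled reads, and the lengths of the TG papillomas, from 7.29 kb, are all above those of the CTR papillomas, up to 4.95 kb.

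Ordered by mean level, the genes ran from *Fgfr2* over *Pdgfa*, *Met*, *Pdgfb*, *Pdgfrb*, *Pdgfc*, *Igf1*, *Pdgfra* and *Fgf7* to *Hgf*. Several neighbours in this order were not separated by the papillomas. *Fgfr2* exceeded *Pdgfa*, *Pdgfa* exceeded *Met* and *Pdgfb* exceeded *Pdgfrb* in 5 of 7 papillomas each, *Pdgfc* exceeded *Igf1* in 4 and *Igf1* exceeded *Pdgfra* in 3. *Fgf7* exceeded *Hgf* in 6 of 7. The steps from *Met* to *Pdgfb*, from *Pdgfrb* to *Pdgfc* and from *Pdgfra* to *Fgf7* held in all 7.

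Of the list as a whole, 0 of the 8 tested members passed an adjusted p under 0.05 in limma, as did 0% of all 12299 tested genes in each direction. At an unadjusted p under 0.05, *Pdgfb* and *Pdgfra* were higher in TG, 2 of 8 where 4.86% of all tested genes were, and 0 of 8 were lower, where 1.96% were. *Pdgfra* and *Igf1*, with CTR means of 0.324 and 0.495 FPKM, were tested only because the TG values brought their mean over the 7 papillomas past 0.5 FPKM, so counts over the tested members favour higher TG values. The mean was higher in TG papillomas for 6 of 8, against 60.0% of all tested genes. Leaving out TG 3, the count was again 6 of 8, against 46.1%. For 4 of the 8 tested members TG 3 made up more than 60% of the FPKM summed over the TG papillomas, against 6.63%. For 0 of the 8 did every TG papilloma lie below every CTR papilloma, against 2.23%. CTR 4 was the highest of the CTR papillomas for 6 of the 8, against 25.7%. The 8 genes deviated from the CTR mean by a median of 0.34 (TG 1), 0.22 (TG 2) and 1.31 (TG 3) on the log2 scale. They share the papillomas and are not replicates of each other.

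**Figure D3:**
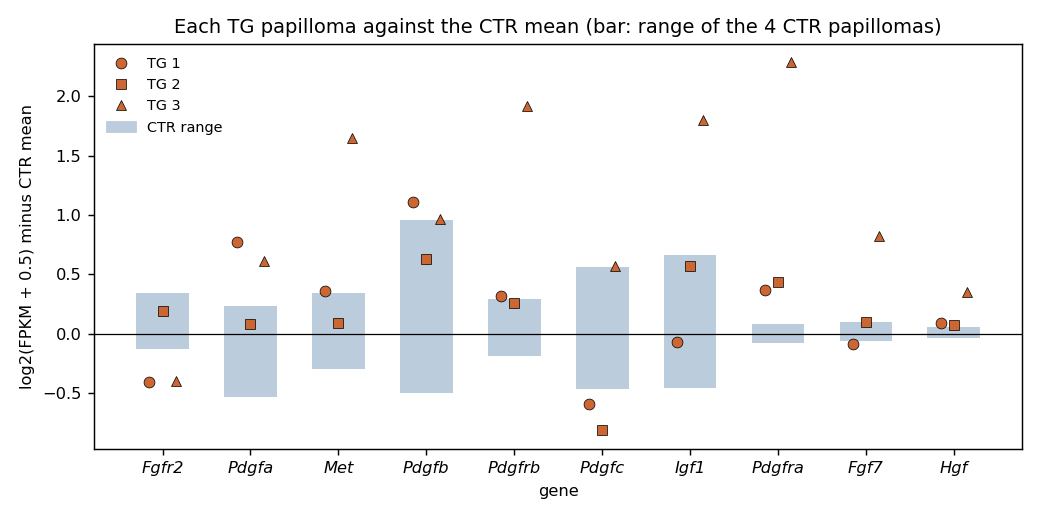
Each TG papilloma minus the CTR mean on the log2(FPKM + 0.5) scale for the 10 genes, with a grey-blue bar for the range of the 4 CTR papillomas. TG 3 (triangle) is 2.29 above the CTR mean for *Pdgfra* and 1.92 for *Pdgfrb*. TG 1 (circle) and TG 2 (square) lie outside the CTR range on the same side for 3 genes, above it for *Pdgfra* and *Hgf* and below it for *Pdgfc*. For *Fgf7* TG 1 lies below the range and TG 2 just above it.

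Markers of the cells that make or bear these signals were read beside the members. In bulk tissue, more cells of a type and more RNA per cell cannot be told apart. The 7 fibroblast markers, collagens and proteoglycans among them, summed to between 74.4 and 130.2 FPKM in CTR papillomas, and to 91.3, 88.1 and 694.7 FPKM in TG 1 to TG 3, the last of which is 5.34 times the next highest papilloma. The collagens make up most of this sum. All 7 markers were highest in TG 3, but the other markers did not all follow the sum in TG 1 and TG 2. *Dpt*, which encodes dermatopontin, had 2.71, 2.26 and 19.8 FPKM in TG 1 to TG 3 and at most 2.15 FPKM in CTR papillomas. *Dcn*, which encodes decorin, had 0.757 FPKM in TG 1 and 4.79 FPKM in TG 2, outside the CTR values of 1.24 to 2.88 FPKM on either side. In TG 3 *Dcn* had 44.6 FPKM. The 7 mural cell markers summed to between 19.9 and 29.6 FPKM in CTR papillomas, and to 34.6, 26.0 and 68.8 FPKM in TG 1 to TG 3. Of 8 macrophage symbols 7 were in the files. They summed to between 35 and 55.3 FPKM in CTR papillomas. In TG 1 to TG 3 they summed to 37.3, 33.9 and 139.9 FPKM. Of these markers 6 were highest in TG 3. *Cd68* was not, with 18.2 FPKM there and between 15.4 and 20.6 FPKM in CTR papillomas.

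T cell markers, of interest because T cells of mouse epidermis are known to make FGF7 and IGF1, were low and did not stand out in TG 3. The 5 of them summed to 2.67 FPKM there, to 2.72 in TG 2, 1.55 in TG 1, and to between 1.19 and 2.68 FPKM in CTR papillomas. Of the 5 adipocyte markers, *Adipoq*, *Plin1*, *Lep* and *Cidec* were at 0 in every CTR papilloma, and *Plin1* and *Cidec* also in TG 1 and TG 2. In TG 3 *Adipoq* had 3.34 FPKM. *Fabp4*, between 1374 and 3228 FPKM in all papillomas, fixed the sum of that list and did not follow the other 4. The skeletal muscle markers *Ckm*, *Myh4*, *Tnnt3* and *Tnnc2* were at 0 in at least 1 CTR papilloma each. TG 3 had the highest level of most fibroblast, macrophage, muscle and fat markers, together with its higher *Pdgfra*, *Pdgfrb*, *Fgf7* and *Igf1*. The part of these tissues in the members' levels was not tested.

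**Figure D4:**
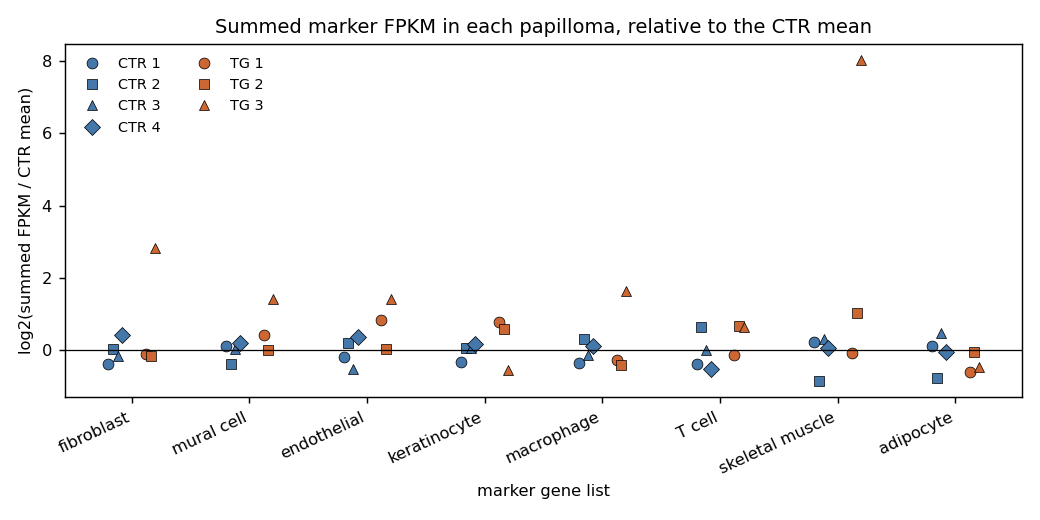
Summed FPKM of each marker list in each papilloma, as log2 of the ratio to the CTR mean, for CTR (blue) and TG (orange) papillomas with a marker shape for each replicate number. TG 3 (orange triangle) is highest for skeletal muscle, at 127 times the next papilloma, and for fibroblast, macrophage, mural cell and endothelial lists, and lowest for the keratinocyte list.

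The remaining genes of the 4 pathways were read from lists of 41 genes, of which 30 were tested. Of these 30, 0 passed the adjusted test, 2 were higher and 1 lower at an unadjusted p under 0.05, where 4.86% and 1.96% of all tested genes were, and the median log2 difference was 0.21, against 0.06 over all tested genes and 0.73 over the 8 tested members. *Fgf1*, *Irs1* and *Igfbp6*, with CTR means of 0.256, 0.297 and 0.420 FPKM, were tested only through their TG values, as were *Pdgfra* and *Igf1* among the members. The counts and medians of these lists therefore favour higher TG values. Among the 3 tested PDGF genes *Plat*, the tissue plasminogen activator that can activate PDGF-C, had the widest difference, with 1.90 to 5.43 FPKM in CTR papillomas, 3.58 and 5.97 FPKM in TG 1 and TG 2, and 49.2 FPKM in TG 3. Its log2 difference was 1.43 (SE 0.76, limma adjusted p = 0.813) with TG 3 and 0.34 without it. *Nrp1*, a coreceptor, followed with 0.59 (limma adjusted p = 0.848). The differential test of the paper, run with Cufflinks on the same libraries, did list *Plat* as upregulated in TG papillomas.

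In the FGF list *Fgf1*, a ligand of all FGF receptors, was the only 1 of 13 genes whose groups did not overlap, where 4.93% of all tested genes separated in this direction. It had 0.125, 0.287, 0.225 and 0.388 FPKM in CTR 1 to CTR 4 and 0.604, 1.61 and 0.741 FPKM in TG 1 to TG 3. Here TG 2 was the highest papilloma, and the log2 difference was 0.93 (SE 0.30, limma adjusted p = 0.653) with TG 3 and 1.02 without it. With a CTR mean of 0.256 FPKM, *Fgf1* also reached the minimum for the test only through the TG papillomas. *Fgfr3*, a further receptor of this family, had 7.61 to 9.34 FPKM in CTR papillomas, 19.9 and 18.5 FPKM in TG 1 and TG 2, and 5.67 FPKM in TG 3, below all others. Its log2 difference was 0.58 (SE 0.38, limma adjusted p = 0.839) with TG 3 and 1.14 without it. *Fgf10*, the stromal ligand closest to FGF7, was at or below 0.029 FPKM in 6 papillomas and at 0.169 FPKM in TG 3. The splicing factors *Esrp1* and *Esrp2*, which favour the epithelial form of FGFR2, were at 52.6 FPKM or more and at 21.7 FPKM or more in every papilloma, with log2 differences of -0.23 and -0.02.

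In the HGF list 0 of the 8 genes separated the groups, where 4.93% of all tested genes had every TG papilloma above and 2.23% below every CTR papilloma. The widest log2 differences among tested genes were 0.33 for *Mst1r*, a receptor related to MET (limma adjusted p = 0.839), and -0.24 for *Spint1*, an inhibitor of the proteases that activate HGF (adjusted p = 0.853). *Spint1* had 41.7 and 45.2 FPKM in TG 1 and TG 2, both below the CTR minimum of 54.4, and 63.1 FPKM in TG 3, above the CTR maximum of 62.3.

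The IGF list held the binding proteins, which trap or present IGFs. Of its 11 tested genes, 1 had every TG papilloma above and 1 below every CTR papilloma. Over all tested genes the shares were 4.93% and 2.23%. *Igfbp7* had 19.6, 30.1, 23.2 and 30.0 FPKM in CTR 1 to CTR 4 and 58.3, 32.0 and 69.4 FPKM in TG 1 to TG 3, all above the CTR papillomas, with a log2 difference of 0.98 (SE 0.28, limma adjusted p = 0.595) and of 0.76 without TG 3. *Igfbp2* was the reverse, at 10.8, 10.8, 27.7 and 14.1 FPKM in CTR 1 to CTR 4 and 9.46, 3.32 and 10.3 FPKM in TG 1 to TG 3. All TG papillomas lay below all CTR papillomas, with a log2 difference of -1.03 (SE 0.43, limma adjusted p = 0.719), and of -1.30 without TG 3. *Igfals*, which stabilises IGF complexes in blood, was also higher in every TG papilloma, at 0.353 to 0.668 FPKM against 0.0766 to 0.339 FPKM, but was too low for the test across genes. *Igf1r*, the IGF1 receptor, had between 1.48 and 3.51 FPKM in CTR papillomas and 2.24, 3.00 and 5.59 FPKM in TG 1 to TG 3 (log2 difference 0.32, limma adjusted p = 0.912).

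For the 3 tested members that spanned at least 2 on the log2 scale, the 3 genes with the most similar profile over the 7 papillomas were found by the root mean square distance between centered log2 values. For *Pdgfra* these were *Apobr* at 0.112, *Hsd11b1* at 0.129 and *Selplg* at 0.129, each far higher in TG 3 than elsewhere. The profile of *Selplg*, the selectin ligand of leukocytes, ran from 0.730 to 1.05 FPKM in CTR papillomas and was 1.29, 1.45 and 5.83 FPKM in TG 1 to TG 3. For *Pdgfrb* they were *Klra2*, *Rtp4* and *Neurl3*, at 0.071, 0.085 and 0.098. For *Igf1* they were *Cd84*, a surface receptor of leukocytes, at 0.157, *Ifitm6* at 0.176 and *Srpx* at 0.182. All of these profiles peak in TG 3, so the likeness rests largely on 1 papilloma.

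**Figure D5:**
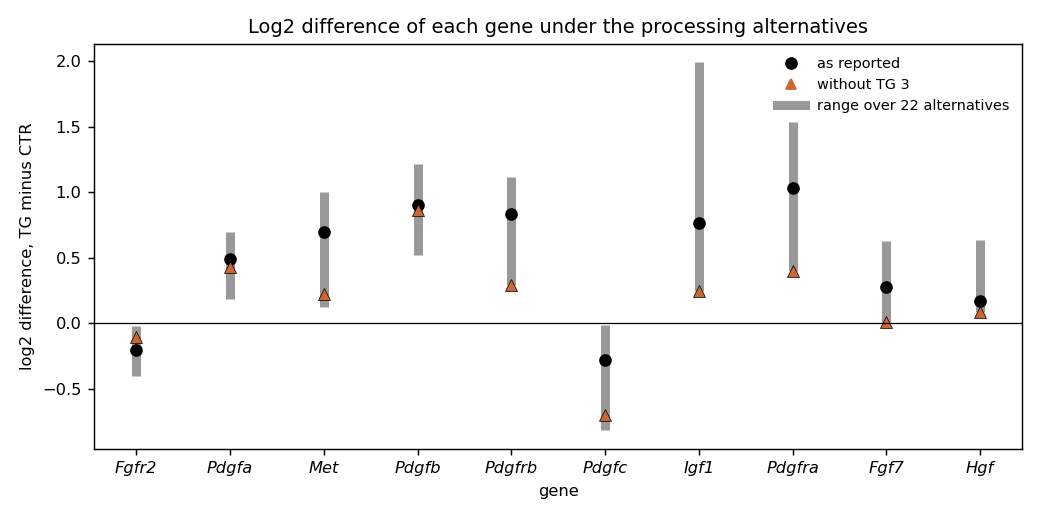
Log2 difference (TG minus CTR) of the 10 genes as reported (black point), without TG 3 (orange triangle) and over the 22 processing alternatives (grey bar from lowest to highest). The sign was the same in all alternatives for each gene, though some of them cannot change the difference. The triangle is at 0.40 for *Pdgfra*, 0.23 for *Met* and 0.87 for *Pdgfb*.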

How the data were processed

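Papillomas of 4 CTR and 3 TG mice were compared, 1 library for each mouse. Alignment by the authors was to the mouse build GRCm38/mm10, from 40-base single reads, by TopHat2 (2.0.4, over Bowtie 0.12.7, with SAMtools 0.1.16). Abundances came from Cufflinks (1.3.0), and the deposited FPKM values carry an interval and a status for each gene. From these, entries of 1 symbol were summed, 162 symbols with a failed estimate in any papilloma were left out, and no further scaling was applied. The 12299 genes whose FPKM averaged 0.5 or more were fitted with limma 3.58.1 in R 4.3.3 on log2(FPKM + 0.5), with a variance trend and Benjamini-Hochberg adjustment over all of them, at a threshold of 0.05. Single genes were also tested by 2-sided exact permutation over 35 splits.

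Implied reads were computed for each value as the square of 2 FPKM divided by the upper half-width of its interval, and for values under 50 between 67.0% and 68.5% came out within 0.05 of a whole number, so depth and reads are approximate. Floors cover counting error only, and intervals do not cover the spread between mice. For genes with several transcripts an interval may hold more than counting error. The fit was tested on simulated data. Python 3.11.15 with numpy 2.4.6, pandas 2.3.3, scipy 1.17.1 and matplotlib 3.10.9 was used.

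The members, pathway lists and marker lists were chosen with earlier results of these data known. Named genes were *Nanog*, all members, markers, the genes of each pathway list whose groups did not overlap or else its 2 widest tested differences, and the 3 nearest profiles of members spanning at least 2 on the log2 scale. *Fgf10*, *Fgfr3*, *Esrp1*, *Esrp2* and *Igf1r* were named after their values were seen. 21 alternatives were planned (pseudocounts of 0.1 and 1, no filter, a filter at 2 FPKM, scalings, variance models, weights, a block, depth, entries, status, and leaving out each papilloma), and 1, implied reads per 1000000, was added after seeing the data.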

Additional observations from a re-analysis of the deposited data

Results flagged for a closer look

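For the 10 members and the 30 tested pathway genes, the 4 CTR papillomas were examined on the log2 scale for a value far from the other 3 by Dixon's gap test. Of 40 genes, 2 met this, and chance alone marks about 1 in 20. *Pdgfa* had 3.26 FPKM in CTR 1, below the other CTR papillomas by 0.886 of their range. *Fgfr2* had 11.96 FPKM in CTR 4, above the others by 0.926 of the range.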

How the results depend on the processing

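The log2 difference of each of the 10 members kept its sign under all 22 alternatives, and 0 members passed the adjusted test in any of them. The filters, variance models, choice of entry and status left the difference itself unchanged, so its sign could not change there. Blocking on the replicate number gave the same differences as leaving out CTR 4. The differences of *Pdgfra*, *Pdgfrb*, *Met* and *Igf1* were 1.03, 0.83, 0.70 and 0.77 with TG 3 and without it 0.40, 0.29, 0.23 and 0.25, and *Fgf7* was then at 0.01. The difference of *Pdgfb* lay between 0.53 (quality weights) and 1.22 (without CTR 4). The difference of *Pdgfc* lay between -0.82 (quality weights) and -0.01 (without TG 2). *Igf1* was highest with implied reads per 1000000, at 1.99, where the added 0.5 weighs less than in FPKM. Over all tested genes, quality weights gave 49 genes above and 36 below their CTR level past the adjusted threshold where 0 and 0 were found, and the papillomas of lower depth only gave 1 higher. Leaving out 1 papilloma gave between 0 and 2 genes higher and between 0 and 1 lower, with 1 higher without CTR 3, 2 higher without TG 1, and 1 higher and 1 lower without TG 3. The cause was not tested.

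Upper-quartile scaling changed the split at an unadjusted p under 0.05 from 598 higher and 241 lower to 495 and 439, quantile normalization to 392 and 560, and implied reads per 1000000 to 429 and 419. Blocking on the replicate number left 0 genes past the threshold in each direction, 0 members passed and 8 of 10 members were higher in TG, and CTR 4 then had no partner. The labels give no pairing beyond the number. Deviations from the group means of same-numbered papillomas correlated at -0.186, 0.0431 and -0.146, and no TG papilloma correlated best with its own number. Under about 10 reads, as for *Hgf* and *Fgf7* outside TG 3, a difference was not detectable at this depth.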
